A study of Mus musculus with 5 samples.

Results

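The 10 genes described here belong to intestinal fat absorption and lipoprotein assembly and were followed in colon libraries from mice with TNBS colitis. They are Fabp1 and Fabp2, Apoa1, Apoa4, Apob and Apoc3, Mttp and Prap1, Dgat1 and Cideb. They were taken by gene symbol from a list of 10 names, all 10 of which matched 1 gene each among the 55471 genes in the deposited tables. The list was drawn up with propyzamide against vehicle in these same libraries already known, so the levels of the 10 genes in that contrast are given as a description, without a test. All mice were male C57BL/6, 11 weeks old, and all had received TNBS (trinitrobenzene sulfonic acid, a hapten that inflames the colon) 3 days before the colon was taken. There were 3 libraries from mice given propyzamide, a weed killer that acts on plant microtubules, and 2 libraries from mice given vehicle. The labels give neither the colon segment nor the dose, and mice without TNBS were not analysed here. RNA was taken from a whole piece of frozen colon, so fewer cells of a type and less RNA per cell cannot be told apart.

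As background, fat absorption runs through a short series of steps in the enterocyte. Fatty acids enter the cell and are held by the binding proteins Fabp1 and Fabp2, and are then built back into triglyceride, with Dgat1 carrying out the last step. In the endoplasmic reticulum Mttp loads this fat onto Apob to start a chylomicron, Prap1 assists Mttp, and Cideb helps the particle to take on more lipid. Apoa1, Apoa4 and Apoc3 coat the particle or act on it in the blood. The small intestine is the known site of this route, and the mouse colon uses it little.

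Of the 10 genes, Fabp2, Apoa1 and Prap1 stood far higher in propyzamide than in vehicle, Dgat1 stood modestly higher, Cideb and Apob overlapped between the groups, and Fabp1, Apoa4, Apoc3 and Mttp were at or near the detection floor in both. Mttp, at 10 counts in propyzamide and 12 in vehicle, did not accompany the 3 genes that stood far higher. Fabp1 had too few counts in either group to be compared. The label of a fat absorption program could be seen for part of the list only. In CPM (counts scaled to the TMM-adjusted library size) 4 of the 10 genes were higher in every propyzamide library than in both vehicle libraries, 0 were lower throughout and 6 overlapped. Over all 12024 tested genes 16.7% were higher throughout and 20.8% lower throughout, and nothing is read from the share among the 10 genes, which this contrast helped to choose. On the length-scaled TPM scale the separated genes were 3, without Dgat1, against 6.1% of all tested genes. A filter on low counts was passed by 6 of the 10 genes (Fabp2, Apoa1, Apob, Prap1, Dgat1 and Cideb).

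**Figure D1:**
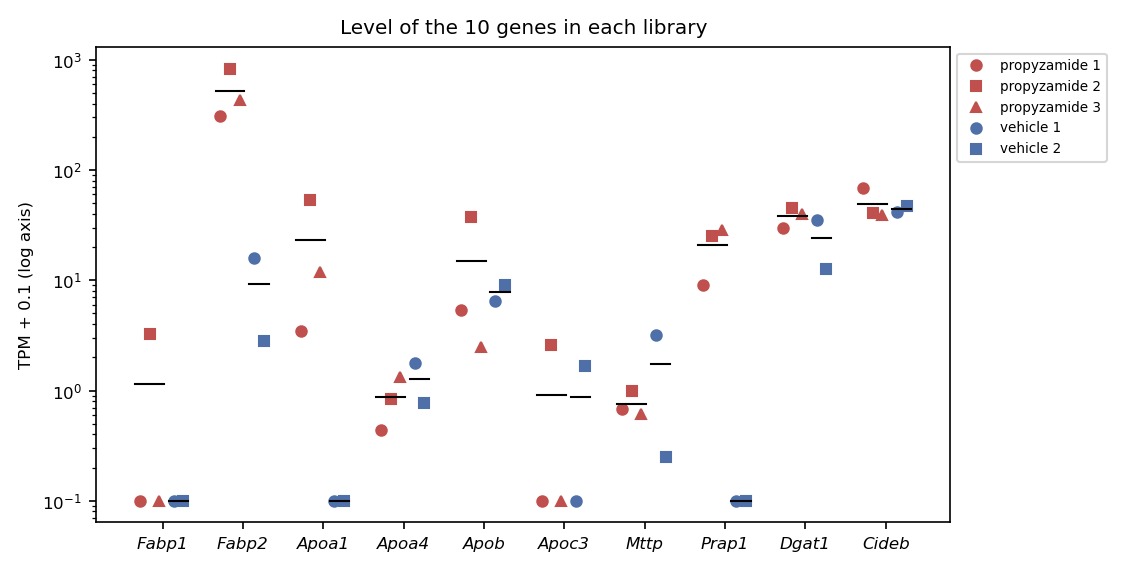
TPM (length-scaled transcript abundance, plus 0.1, on a log axis) of each of the 10 genes in each library; red points are the 3 propyzamide libraries, blue points the 2 vehicle libraries, marker shapes are replicate numbers and black lines are group means. Fabp2, Apoa1 and Prap1 are separated between the groups, while Fabp1, Apoa4, Apoc3 and Mttp lie at or below 3.14 TPM in all 5 libraries.

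Among the fatty acid binding proteins, Fabp2, the intestinal form, was at 228, 837 and 453 CPM in propyzamide, against 7.44 and 2.84 CPM in vehicle. All 3 propyzamide libraries lay far above both vehicle libraries, and propyzamide replicate 2 was the highest. Fabp2 averaged 506 ± 308 CPM in propyzamide (SD, n = 3) and 5.14 ± 3.26 CPM in vehicle (SD, n = 2), a fitted log2 fold change of 6.56 ± 0.74 (SE). Summed over the groups, its counts were 3044 in propyzamide and 23 in vehicle, a scaled ratio of 84.7 with an exact 95% interval of 56.3 to 134 that covers counting error only. The log2 fold change was 7.43 without vehicle replicate 1 and 5.97 without propyzamide replicate 2. Fabp1, the liver-type form that small-intestinal enterocytes also make, had 0, 3 and 0 counts in propyzamide and 0 counts in both vehicle libraries. No fold change is given for Fabp1, since both groups are at the floor of 3 counts, which corresponds to 0.459 CPM over the propyzamide group and 0.718 CPM over the vehicle group. Fabp2 lies on chromosome 3 from 122895072 to 122899506 of GRCm38, and Fabp1 on chromosome 6 from 71199827 to 71205023. An unnamed gene on the opposite strand, 4933405D12Rik, spans the whole of Fabp2 and had 0 counts in every propyzamide library and 5 and 0 counts in vehicle.

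Apoa1, the main protein of high-density lipoprotein and also a chylomicron protein, had 8, 115 and 22 counts in propyzamide and 0 counts in both vehicle libraries. In CPM these were 2.72, 59.0 and 13.4, so propyzamide replicate 2 carried most of the Apoa1 reads and replicate 1 was just above the floor of 1.02 CPM that 3 counts make in that library. With vehicle set to the floor of 3 counts for the group, Apoa1 was at least 30.9-fold higher in propyzamide, and the exact counting interval of the propyzamide sum put the lower end of that bound at 26.1-fold. Without propyzamide replicate 2, which held 115 of the 145 counts, the bound was 9.12-fold, and without propyzamide replicate 1 it was 53.2-fold. Apoa4, a chylomicron protein induced by dietary fat in the small intestine, had 2, 3 and 4 counts in propyzamide and 4 and 3 counts in vehicle. The scaled ratio of the Apoa4 sums was 0.823 (exact counting interval 0.273 to 2.6), so no difference was detectable at this depth. Apoc3, which slows the clearance of triglyceride-rich particles, had 0, 1 and 0 counts in propyzamide and 0 and 1 counts in vehicle. Reads of Apoa4 can be shared with 2 genes on the opposite strand that overlap it, Gm10680 and Gm47528, which had at most 3 counts in any library.

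Apob, the backbone protein of chylomicrons, was at 23.8, 145 and 11.0 CPM in propyzamide, against 22.7 and 36.9 CPM in vehicle. Propyzamide replicate 2 alone lay above both vehicle libraries, and replicate 3 was the lowest of the 5 libraries. The fitted log2 fold change of Apob was 1.01 ± 0.80 (SE) with all libraries and turned to -0.75 ± 0.47 without propyzamide replicate 2. Over the 5 libraries all 4 annotated Apob transcripts had counts. In propyzamide replicate 2, 166 of the 283 counts were assigned to the short Apob-203, which is 2174 bases long and shares its 3′ end with the gene, against 12.1 and 8.92 counts in the other propyzamide libraries and 2.01 and 0 in vehicle. Apobec1, the enzyme that edits Apob RNA so that the intestine makes the short form of the protein, was at 29.9, 41.6 and 39.6 CPM in propyzamide, against 17.0 and 21.6 CPM in vehicle, with an edgeR adjusted p of 0.212.

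Mttp, the transfer protein without which Apob particles are not made, had 4, 4 and 2 counts in propyzamide and 11 and 1 counts in vehicle. The scaled ratio of the Mttp sums was 0.533 (exact counting interval 0.206 to 1.35), and both vehicle libraries bracketed the propyzamide values in CPM. Of these reads, 2, 4 and 2 in propyzamide and 6 and 0 in vehicle were assigned to Mttp-203, a retained-intron transcript at the 5′ end of the gene that partly overlaps Trmt10a on the opposite strand. Prap1, a small secreted protein that binds Mttp in mice, had 11, 28 and 28 counts in propyzamide and 0 counts in both vehicle libraries, or 3.74, 14.4 and 17.0 CPM. With the same floor for vehicle, Prap1 was at least 14.3-fold higher in propyzamide, with the lower end of the counting interval at 11.1-fold. The bound for Prap1 was 11.1-fold to 21.7-fold when 1 propyzamide library was left out, the highest without propyzamide replicate 1. The last 431 bases of the gene overlap Fuom, an enzyme gene of fucose metabolism on the opposite strand. Fuom itself was at 17.0, 29.3 and 40.8 CPM in propyzamide, against 4.96 and 13.6 CPM in vehicle (edgeR adjusted p = 0.138), and without knowledge of strand the reads of the shared stretch cannot be told apart.

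Dgat1, which makes triglyceride from diacylglycerol, was at 21.1, 43.6 and 38.4 CPM in propyzamide, against 16.1 and 11.9 CPM in vehicle. The propyzamide libraries were all above vehicle in CPM, propyzamide replicate 1 being the nearest to them, and the log2 fold change was 1.27 ± 0.44 (SE). On the TPM scale the groups overlapped, at 29.6, 44.9 and 39.7 TPM in propyzamide and 35.3 and 12.4 TPM in vehicle. Retained-intron transcripts took 78.8%, 84.7% and 85.8% of the Dgat1 counts in propyzamide and 67.0% and 86.0% in vehicle. Most of these counts lay in Dgat1-205, which is 885 bases long and sits at the 3′ end of the gene, while the full-length coding Dgat1-201 had 11.5, 13.0 and 6.28 counts in propyzamide and 10.9 and 2.02 counts in vehicle. Cideb, which promotes lipid loading of lipoproteins, was at 66.6, 53.4 and 53.0 CPM in propyzamide, against 25.6 and 61.8 CPM in vehicle. The vehicle libraries lay on either side of the lower propyzamide values, the log2 fold change of Cideb was 0.41 ± 0.41 (SE), and without vehicle replicate 1 it was -0.12 ± 0.43.

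The promoters of Fabp2, Apoa1 and Prap1, the genes that stood far higher, are shown with that of Fabp1, whose reads were absent from 4 of the 5 libraries. Sequences are from RefSeq on GRCm38.p6, run 5′ to 3′ from 250 bases before to 50 bases after the annotated start, and capitals mark matches to the motifs named after them.
Fabp2 promoter, chr3:122894822-122895121, plus strand: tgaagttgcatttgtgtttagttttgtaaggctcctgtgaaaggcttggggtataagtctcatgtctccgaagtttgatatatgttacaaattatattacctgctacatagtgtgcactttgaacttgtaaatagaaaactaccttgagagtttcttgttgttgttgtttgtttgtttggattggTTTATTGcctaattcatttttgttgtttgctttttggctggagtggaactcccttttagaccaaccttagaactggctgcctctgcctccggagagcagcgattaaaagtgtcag
Fabp1 promoter, chr6:71199629-71199928, plus strand: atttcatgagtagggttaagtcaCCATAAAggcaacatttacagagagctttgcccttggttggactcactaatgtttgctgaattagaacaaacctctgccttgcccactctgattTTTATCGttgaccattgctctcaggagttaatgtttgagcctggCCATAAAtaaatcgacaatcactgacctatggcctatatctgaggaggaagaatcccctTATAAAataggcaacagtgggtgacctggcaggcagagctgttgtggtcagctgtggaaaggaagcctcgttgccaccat
Apoa1 promoter, chr9:46228380-46228679, plus strand: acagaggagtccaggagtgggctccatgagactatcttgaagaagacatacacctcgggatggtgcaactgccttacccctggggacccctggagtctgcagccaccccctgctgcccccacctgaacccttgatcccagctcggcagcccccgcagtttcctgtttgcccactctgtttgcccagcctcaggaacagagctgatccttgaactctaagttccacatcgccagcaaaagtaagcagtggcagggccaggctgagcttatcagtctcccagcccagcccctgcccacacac
Prap1 promoter, chr7:140093146-140093445, plus strand: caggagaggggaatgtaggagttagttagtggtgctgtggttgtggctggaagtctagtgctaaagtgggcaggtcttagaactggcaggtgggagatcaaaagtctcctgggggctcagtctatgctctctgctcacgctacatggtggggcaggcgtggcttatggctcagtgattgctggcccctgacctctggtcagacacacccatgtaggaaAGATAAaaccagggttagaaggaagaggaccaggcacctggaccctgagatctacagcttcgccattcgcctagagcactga
Promoters of 8 of the 10 genes were found in the RefSeq table, those of Dgat1 and Apoc3 being named only. Both strands were searched for 6 motifs. The core promoter motif was the TATA box, TATAAA. For the homeobox factor CDX2 the letters were TTTATNG. For the GATA factors of the gut epithelium they were AGATAA. The nuclear receptor HNF4 was represented by CAAAGTCCA, and the HNF1 motif and the DR1 direct repeat of nuclear receptors were searched as well. The CDX2 letters were in the windows of Fabp2 (-65 to -59 from the start), Fabp1 (3 matches), Apob and Cideb, and in 10.9% of all 32851 promoters. In Apob and Cideb that match overlaps a TATAAA on the other strand. The TATAAA letters were found in Fabp1 (-30 to -25), Apob and Cideb and in 13.6% of all promoters, and AGATAA in Prap1 (-32 to -27) and in 11.2%. The window of Apoa1 held 0 matches to any of the 6 motifs, and the HNF4, HNF1 and DR1 motifs, present in 0.475%, 0.0609% and 0.0152% of all promoters, were in 0 of the 8 windows. A match describes these letters only. The motifs were searched as fixed letters apart from N, so variant sites would be missed. With shares as low as those of HNF4, HNF1 and DR1, 0 of the 8 windows is the usual outcome, and nothing is read from an absence. The 3 genes that stood far higher shared 0 of the motifs searched.

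Levels can be compared between genes only per length, in TPM. In propyzamide the order of the mean TPM was Fabp2 (524), Cideb (49.3), Dgat1 (38.1), Apoa1 (23.0), Prap1 (20.9) and Apob (14.9), followed by Fabp1, Apoc3, Apoa4 and Mttp at 1.05 TPM or less. Fabp2 stood clear of all others, with a lowest value of 307 TPM against a highest of 68.8 TPM for Cideb. Cideb and Dgat1 overlapped each other, as did Apoa1, Prap1 and Apob. In propyzamide replicate 2 Apoa1 reached 53.8 TPM and Apob 37.1 TPM. Apoa1 thus also overlapped Cideb and Dgat1, and Apob overlapped Dgat1. In vehicle the order was Cideb (44.1), Dgat1 (23.9), Fabp2 (9.24) and Apob (7.69), with Mttp at 1.63, Apoa4 at 1.17, Apoc3 at 0.780 and the remaining genes listed at 0. In vehicle Fabp2 overlapped both of its neighbours in this order, while both Dgat1 values lay above both Apob values. There Fabp2 was at 15.8 and 2.72 TPM, Apob at 6.42 and 8.95 TPM and Dgat1 at 35.3 and 12.4 TPM.

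The low members were set against stray reads in the same libraries. Reads on 1466 odorant and pheromone receptor genes, which the colon is not known to use, gave a background of 0.0585, 0.465 and 0.139 counts per kilobase in propyzamide and 0.910 and 0.568 in vehicle. For its length, Mttp would draw 2.63 background counts in propyzamide and 5.86 in vehicle, against 10 and 12 counts seen. Apoa4 would draw 1.2 and 2.68, against 9 and 7 seen, and Apoc3 0.470 and 1.05, against 1 and 1 seen. Apob, the longest of the 10, would draw 9.24 in propyzamide and 20.6 in vehicle, a small part of its 371 and 120 counts. Fabp2, Apoa1 and Prap1 would draw at most 0.686 counts each in propyzamide, where they had 3044, 145 and 67.

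**Figure D2:**
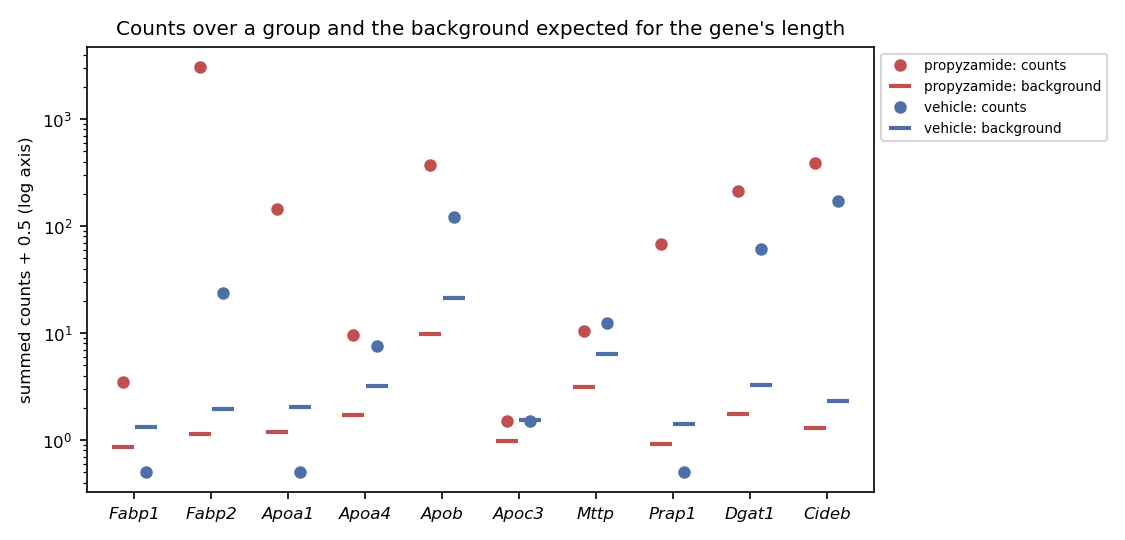
Estimated counts summed over each group (points, plus 0.5 on a log axis) and the counts expected from stray reads for the gene's length (bars, plus 0.5), with propyzamide in red left of vehicle in blue. In vehicle the points of Apoa1, Prap1 and Fabp1 lie at 0 counts, that of Apoc3 lies on its bar, and that of Mttp lies at 12 counts above a bar at 5.86.

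Propyzamide replicate 2 gave the highest CPM for 5 of the 10 genes, Fabp1, Fabp2, Apoa1, Apob and Dgat1. The goblet-cell marker sum was lowest in that library, at 697 CPM, with 6754 and 4458 CPM in propyzamide replicates 1 and 3 and 8616 and 3078 CPM in vehicle. Of the 8 goblet-cell genes 0 passed (edgeR or DESeq2). At an unadjusted p under 0.05, 1 was higher and 2 lower, beside 8.52% and 9.65% of all tested genes. The small-intestinal enterocyte marker sum was highest in propyzamide replicate 2, with 83.6, 141 and 106 CPM in propyzamide and 72.4 and 83.4 CPM in vehicle. All 3 propyzamide sums lay above both vehicle sums, that of propyzamide replicate 1 only just. This separation rests on Alpi, at 32.6, 13.9 and 33.5 CPM in propyzamide and 0.827 and 0 CPM in vehicle. Without Alpi the sums of the groups overlap. Sucrase-isomaltase (Sis), the defining sugar-digesting enzyme of the small intestine, was at 0, 12.8 and 1.22 CPM in propyzamide and at 0 and 0.567 CPM in vehicle.

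The tissue label was checked against marker lists. Over all tested genes edgeR called 0.69% higher and 1.21% lower, and DESeq2 2.16% and 2.54%. At an unadjusted p under 0.05 these shares were 8.52% and 9.65%. Colonocyte markers summed to between 10730 and 14650 CPM in propyzamide and between 7373 and 7730 CPM in vehicle. Car1 was at 2434, 2827 and 6098 CPM in propyzamide and 869 and 969 CPM in vehicle. Guca2a was at 2863, 3843 and 2440 CPM in propyzamide and 256 and 251 CPM in vehicle. Without Car1 and Guca2a the sums of the groups overlap. Of the 12 colonocyte genes 2 passed edgeR's test, Guca2a and Slc9a3, both higher. DESeq2 called 4 of the 12 higher and 0 lower, and 5 were higher and 0 lower at an unadjusted p under 0.05. The list was split, with 7 positive and 5 negative log2 fold changes. Small-intestinal markers were at or below 141 CPM in sum, and 5 of 12 were tested, 3 with a positive and 2 with a negative log2 fold change. Alpi, the intestinal alkaline phosphatase, rose (edgeR adjusted p = 0.00759) and the other 4 did not pass. Slc5a1, the glucose carrier with the highest level of the list, stood at -0.31 ± 0.35 (log2, SE). The sugar carrier Slc2a2 was at 0 CPM in propyzamide and 4.55 and 1.70 CPM in vehicle (11 and 3 counts). The part of stray reads, denser in vehicle, in these Slc2a2 counts was not tested. The sums of the pan-epithelial markers overlapped between the groups, at 4529 to 6071 CPM in propyzamide and 4148 to 4991 CPM in vehicle, with 0 of 8 past the threshold (0 also with DESeq2 and at an unadjusted p under 0.05). Within that list Vil1 and Krt8 were higher and Elf3 lower in CPM in every propyzamide library, and the other 5 genes overlapped. As a percent of that epithelial sum, Fabp2 was 3.75% to 18.0% in propyzamide and 0.149% and 0.0684% in vehicle. Liver is the other main source of lipoprotein RNA, and its markers were mixed. Albumin (Alb) was at 0, 0 and 1.22 CPM in propyzamide and 0 in both vehicle libraries, and Fgg was at 0 counts in all 5 libraries. Cyp2e1 was at 1.02, 7.19 and 73.1 CPM in propyzamide and 0.827 and 0 CPM in vehicle, and Trf at 5.44, 11.3 and 17.7 CPM in propyzamide and 95.95 and 21.0 CPM in vehicle. Summed hepatocyte markers were at 16.0 to 101 CPM in propyzamide and 56.7 to 127 CPM in vehicle, with 0 of 4 tested genes past edgeR's threshold, 1 lower with DESeq2, and 1 higher and 2 lower at an unadjusted p under 0.05. Smooth-muscle markers summed to 5204 to 8686 CPM in propyzamide, against 457 and 3089 CPM in vehicle, and macrophage markers to 47.2 to 300 CPM in propyzamide, against 98.4 and 85.1 CPM in vehicle. Of the smooth-muscle markers 0 of 8 passed edgeR's threshold, 4 were higher with DESeq2 and 7 at an unadjusted p under 0.05; of the macrophage markers 0 of 6 passed in edgeR, DESeq2 or unadjusted. The part of these cells in the levels of the 10 genes was not tested.

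**Figure D3:**
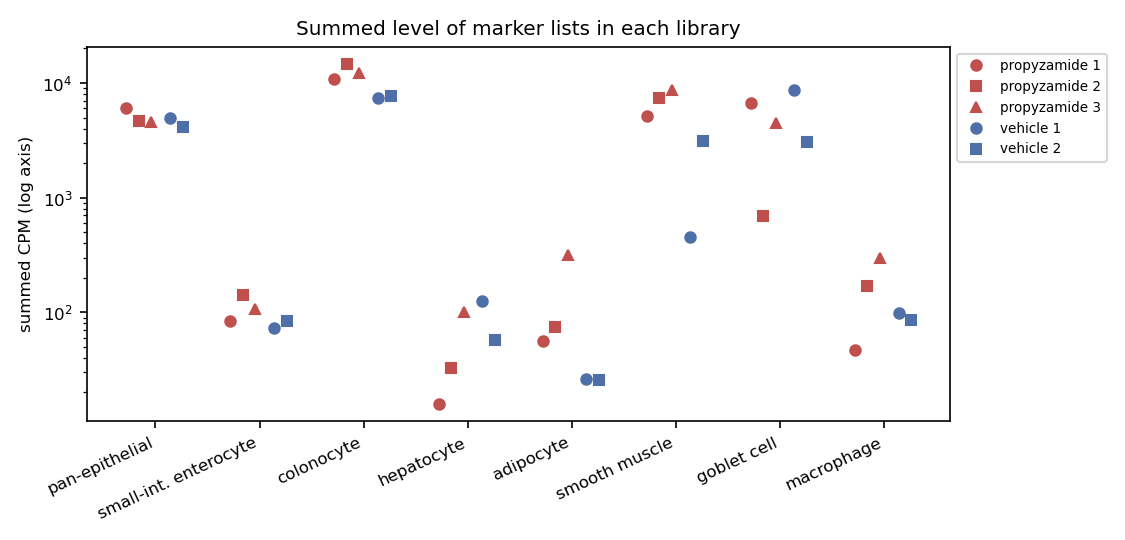
Summed CPM (log axis) of 8 lists of cell type markers in each library, with propyzamide libraries in red left of vehicle libraries in blue and marker shapes for replicate numbers. Pan-epithelial sums overlap between the groups, colonocyte, adipocyte and smooth-muscle sums are higher in all 3 propyzamide libraries, and the goblet-cell sum of propyzamide replicate 2 is the lowest of the 5. Small-intestinal enterocyte sums are also higher in all 3, with propyzamide replicate 1 (83.6 CPM) just above vehicle replicate 2 (83.41 CPM). The small-intestinal sums overlap without Alpi, and the colonocyte sums overlap without Car1 and Guca2a.

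The other genes of the route were taken from 8 lists of 92 names, of which 70 passed the filter on low counts and were tested with edgeR's quasi-likelihood test over all genes. At an adjusted p under 0.05, 5 of the 70 rose in propyzamide (7.14%), 0 fell and 65 did not pass. Over all tested genes 0.69% rose and 1.21% fell. Their median log2 fold change was 0.25, with 44 positive and 26 negative, against a median of -0.02 over all tested genes. At an unadjusted p under 0.05, 18 were higher and 4 lower, beside 8.52% and 9.65% of all tested genes. DESeq2 called 9 higher and 3 lower, beside 2.16% and 2.54% of all tested genes. These lists were drawn up with earlier results of these data known, so nothing is read from their shares. The 5 genes that rose were Cidec, Mgll and Ces2e among lipid droplet and lipase genes and Cdx2 and Isx among transcription factors. Leaving out propyzamide replicate 2 left 0 calls, leaving out propyzamide replicate 3, vehicle replicate 1 or vehicle replicate 2 left 1 each, and leaving out propyzamide replicate 1 gave 8.

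Mgll, the lipase that splits monoglyceride, was at 64.2, 102 and 94.97 CPM in propyzamide, against 7.03 and 23.8 CPM in vehicle. Its log2 fold change was 2.52 ± 0.51 (SE; edgeR adjusted p = 0.0323), lost without vehicle replicate 1 (0.293), propyzamide replicate 2 (0.0505) or propyzamide replicate 3 (0.0742). The Mgll call held in 9 of 16 alternatives, being lost also with both limma fits (0.0847 and 0.136), background subtracted (0.0583) and the length offset (0.0926), and leaving out vehicle replicate 1 gave a log2 fold change of 1.84 and leaving out vehicle replicate 2 one of 3.67. Cidec, a lipid droplet protein of the same family as Cideb, was at 13.9, 20.5 and 18.9 CPM in propyzamide, against 1.65 and 0 CPM in vehicle (4.17 ± 0.81 log2, SE; edgeR adjusted p = 0.0277). The call for Cidec was lost without any single library other than propyzamide replicate 1 (0.0505 to 0.141), with both limma fits (0.0569 and 0.112) and with the length offset (0.0785), and held in 9 of 16 alternatives. Leaving out vehicle replicate 2 gave Cidec a log2 fold change of 3.43, and leaving out vehicle replicate 1 gave 8.20, when the remaining vehicle library was at 0 and the fitted value depends on the prior count. Ces2e, an esterase of the intestinal carboxylesterase family, was at 139, 273 and 231 CPM in propyzamide, against 64.9 and 65.3 CPM in vehicle. Its call (1.71 ± 0.40 log2, SE; edgeR adjusted p = 0.0495) was lost without any single library other than propyzamide replicate 1 (0.0773 to 0.36). The call for Ces2e held in 5 of 16 alternatives, and was also lost with DESeq2 size factors (0.0518), upper-quartile scaling (0.0534), a filter of 10 CPM (0.0641), both limma fits (0.322 and 0.358), background subtracted (0.0834) and the length offset (0.0568). The sum of adipocyte markers, whose list shares Cidec, was also higher in every propyzamide library, at 56.1, 74.9 and 313 CPM in propyzamide and 26.1 and 25.5 CPM in vehicle, with Adipoq at 1.02, 3.59 and 29.8 CPM in propyzamide and 0.414 and 1.70 CPM in vehicle. Of that list 2 of 4 tested genes rose in edgeR, Cfd and Cidec, beside 0.69% of all tested genes. DESeq2 called 1 of the 4 higher, and 3 were higher at an unadjusted p under 0.05, beside 2.16% and 8.52%. Cfd made 192 of the 313 CPM in propyzamide replicate 3. Lep and Plin1 stood the other way. Lep was at 0 CPM in all 3 propyzamide libraries and 2.48 and 1.70 CPM in vehicle (6 and 3 counts). Plin1 was at 0.340, 0 and 1.22 CPM in propyzamide and 2.48 and 2.84 CPM in vehicle (6 and 5 counts). Stray reads were denser in both vehicle libraries than in propyzamide, and their part in these low counts was not tested. The part of adipocytes in the result was not tested. Plin2, the coat protein of lipid droplets, stood lower, at 42.8, 41.1 and 70.0 CPM in propyzamide and 136 and 112 CPM in vehicle, without passing (-1.28 ± 0.36 log2, SE, edgeR adjusted p = 0.0783). Plin2 passed in 2 of 16 alternatives, with DESeq2 (adjusted p = 0.0474) and with edgeR and a replicate block (adjusted p = 0.0168). Ces2a was at 74.4, 377 and 203 CPM in propyzamide and 106 and 194 CPM in vehicle, with overlapping groups.

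Cdx2, the homeobox factor of intestinal identity, was at 20.7, 40.5 and 14.0 CPM in propyzamide, against 2.90 and 1.14 CPM in vehicle (3.54 ± 0.68 log2, SE; edgeR adjusted p = 0.0274). The call for Cdx2 was lost without vehicle replicate 1 (0.166), vehicle replicate 2 (0.183) or propyzamide replicate 2 (0.0539) and with both limma fits (0.0514 and 0.0931), and held in 11 of 16 alternatives. Without vehicle replicate 1 its log2 fold change was 4.38. Isx, a homeobox factor of the gut that represses uptake of carotenoids, was at 31.6, 65.7 and 146 CPM in propyzamide, against 9.51 and 0 CPM in vehicle (3.96 ± 0.90 log2, SE; edgeR adjusted p = 0.0478). The call for Isx was lost without vehicle replicate 2 (0.193) or propyzamide replicates 2 or 3 (0.0608 and 0.107), with DESeq2 (0.201), a filter of 10 CPM (0.0513), limma on log2(TPM + 0.1) (0.0597), background subtracted (0.0694) and the length offset (0.0549), and held in 8 of 16 alternatives. Its log2 fold change was 3.13 without vehicle replicate 2 and 3.23 without propyzamide replicate 3, and 10.4 without vehicle replicate 1, when the remaining vehicle library was at 0 and the fitted value depends on the prior count. Hnf4a, the nuclear receptor that drives many apolipoprotein genes, was at 171, 170 and 133 CPM in propyzamide and 164 and 165 CPM in vehicle, a log2 fold change of -0.06 ± 0.33 (SE). Nr1h4, the bile acid receptor, and Ppargc1a, a coactivator of oxidative metabolism, stood at 1.01 ± 0.39 and -0.90 ± 0.39 (log2, SE) without passing (edgeR adjusted p = 0.194 and 0.242).

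In the remaining 6 groups 0 of 44 tested genes passed edgeR's threshold, beside 0.69% of all tested genes higher and 1.21% lower. DESeq2 called 5 of the 44 higher and 2 lower, beside 2.16% and 2.54% of all tested genes. At an unadjusted p under 0.05, 12 were higher and 2 lower, beside 8.52% and 9.65%. The uptake genes were split, with 3 positive and 3 negative log2 fold changes. Slc27a4, a fatty acid transporter of enterocytes, was at 31.6, 33.9 and 111 CPM in propyzamide, against 8.69 and 19.9 CPM in vehicle (2.05 ± 0.61 log2, SE; edgeR adjusted p = 0.101), and the fatty acid receptor Cd36 stood at 2.37 ± 0.76 (log2, SE; edgeR adjusted p = 0.122). In the same list the sterol exporter Abcg5 was at 0.680, 1.03 and 0.609 CPM in propyzamide, against 14.1 and 5.67 CPM in vehicle (-3.60 ± 0.87 log2, SE; edgeR adjusted p = 0.0514), and the fatty acid transporter Slc27a1 was at 8.16, 3.59 and 4.87 CPM in propyzamide, against 22.3 and 25.5 CPM in vehicle (edgeR adjusted p = 0.0521). Fabp4, the binding protein of fat cells and endothelium, was at 15.0, 51.8 and 60.9 CPM in propyzamide, against 2.90 and 9.08 CPM in vehicle (edgeR adjusted p = 0.0508). Dbi, the acyl-CoA binding protein, was at 283, 280 and 275 CPM in propyzamide and 132 and 81.1 CPM in vehicle (1.39 ± 0.37 log2, SE; edgeR adjusted p = 0.0697). Gpat3, which starts glycerolipid synthesis, was at 15.0, 12.3 and 11.6 CPM in propyzamide, against 1.65 and 2.27 CPM in vehicle (edgeR adjusted p = 0.0521), and Lpin2, a phosphatidate phosphatase, stood at 1.37 ± 0.38 (log2, SE; edgeR adjusted p = 0.0772). In CPM the groups did not overlap for any of these 8 genes, and none passed. In TPM Cd36 and Dbi overlapped. Over all tested genes 16.7% were higher and 20.8% lower throughout in CPM, and 6.1% and 22.4% in TPM. The 8 were named for a small p or after their values were seen, so nothing is read from their separation. Among the alternatives Fabp4 passed in 7 of 16, Slc27a1 in 6 of 16 and Abcg5 in 5 of 12. Dbi and Gpat3 passed in 3 of 16 each and Lpin2 in 1 of 16. Acyl-CoA synthetases gave 0 genes at an unadjusted p under 0.05, with Acsl1 and Acsl6 lowest in p at -1.21 ± 0.57 and -1.64 ± 1.13 (log2, SE). Vmp1 and Sec23a, which act in export of particles from the endoplasmic reticulum, stood at 1.20 ± 0.35 and 1.001 ± 0.40 (log2, SE; edgeR adjusted p = 0.0872 and 0.205), and Apod, a lipocalin, at 1.98 ± 0.78 (edgeR adjusted p = 0.199).

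**Figure D4:**
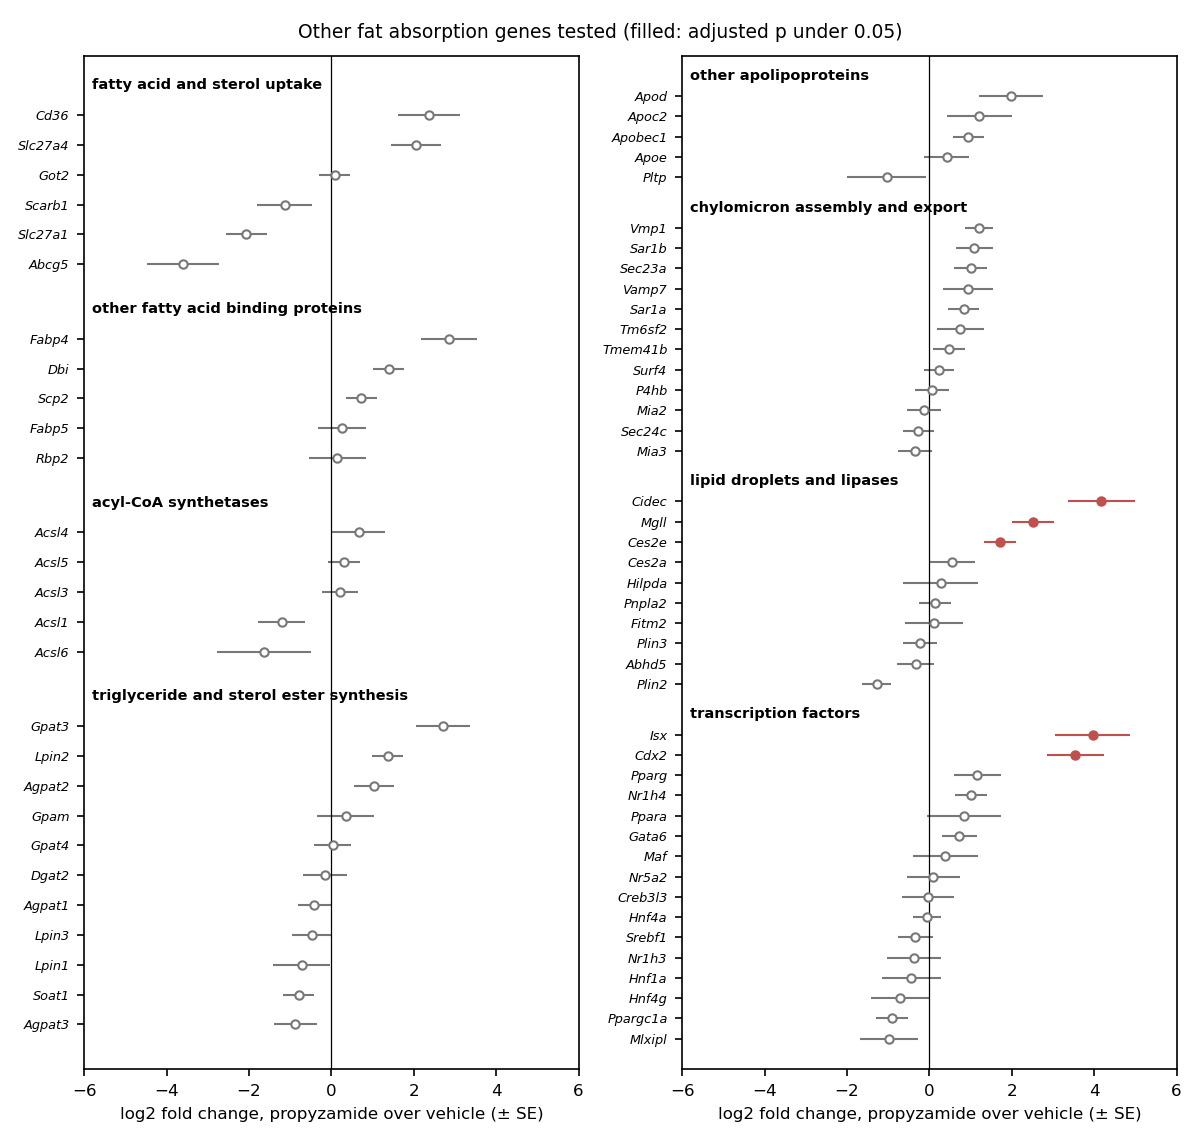
Log2 fold change, propyzamide over vehicle, with SE bars, of the 70 tested genes of the route outside the list of 10, grouped by role. Filled points passed edgeR's adjusted p of 0.05 (Cidec, Mgll, Ces2e, Isx and Cdx2), all of them to the right of 0, and open points did not.

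Apoa1, Apoc3 and Apoa4 lie with Apoa5 in a cluster on chromosome 9 from 46228580 to 46271919, a span of 43340 bases. Within this cluster Apoa1 was the only gene above 3.00 CPM in any library. Apoa5 had 0 counts in propyzamide and stood at 2.90 and 0.567 CPM in vehicle (7 and 1 counts). The part of stray reads in these Apoa5 counts was not tested. Of the 14 annotated genes within 100 kb of the cluster, 8 code for protein. The neighbours Zpr1, Bud13 and Sik3 stood at -0.66, -1.70 and -0.64 on the log2 scale (edgeR adjusted p = 0.519, 0.299 and 0.543), and each had its mean CPM lower in propyzamide.

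The genes whose levels ran most like Fabp2 over the 5 libraries were sought among 5583 protein-coding genes with a mean log2 CPM of at least 4, by the root-mean-square difference of centred log2 CPM. The 8 nearest were Tmigd1, Reg3b, Reg3g, Slc9a3, Adra2a, 1810065E05Rik, Sptssb and Emp1, at differences of 0.36 to 1.19 log2 units. Tmigd1, an adhesion protein of epithelial cells, was at 58.1, 174 and 93.1 CPM in propyzamide and 1.65 and 0.567 CPM in vehicle. Reg3g, an antimicrobial lectin, was at 16.7, 60.6 and 37.1 CPM in propyzamide and 2.07 and 0 CPM in vehicle. Sptssb, a subunit of the enzyme that starts sphingolipid synthesis, was at 115, 74.4 and 106 CPM in propyzamide and 7.86 and 0 CPM in vehicle. Among the other members, 12 of the 5583 genes were nearer to Fabp2 than Apoa1 was and 15 were nearer than Prap1, against 319 for Dgat1, 2213 for Cideb and 3204 for Apob. This likeness rests mostly on the step between the groups, which the choice of genes used, and it is a description.

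**Figure D5:**
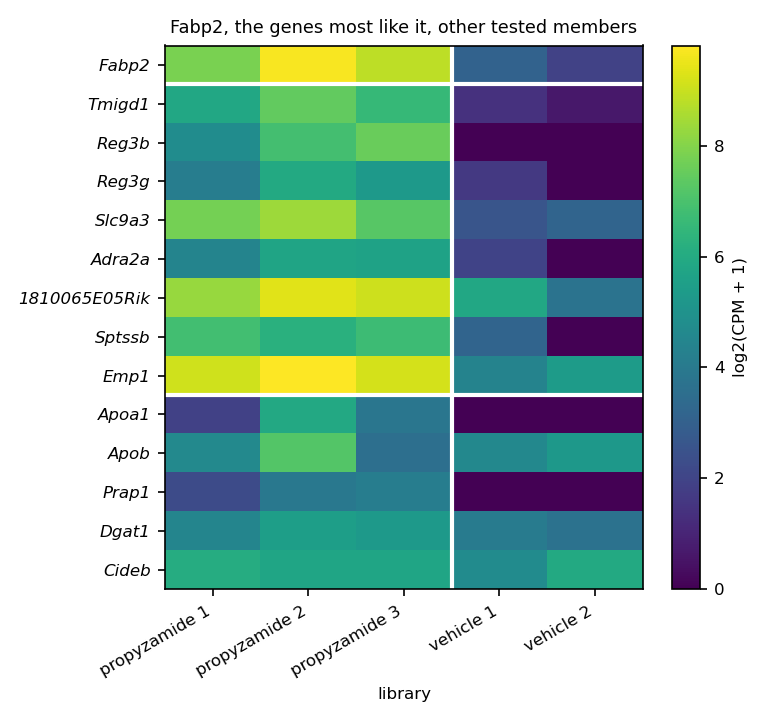
Colour gives log2(CPM + 1) in each library, propyzamide left of vehicle, for Fabp2 (top), the 8 genes whose pattern is most like it (middle) and the other 5 members that were tested (bottom). Apoa1 and Prap1 repeat the dark vehicle columns of Fabp2, whereas Apob, Dgat1 and Cideb show less contrast.

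The libraries held 1882235 to 2706885 estimated counts in propyzamide and 1573700 and 2258237 in vehicle, and rRNA-like loci took 36.7% to 41.6% of them in propyzamide and 26.3% and 43.6% in vehicle. A single count equals 0.340 to 0.609 CPM. Over all genes edgeR called 229 of 12024 (1.9%), 83 higher and 146 lower in propyzamide (63.8% lower), and with upper-quartile scaling 79 higher and 235 lower (74.8% lower). With limma on log2(TPM + 1) the split was 66 higher and 424 lower (86.5% lower), and with a pseudocount of 0.1 it was 40 and 237 (85.6% lower). The median over all genes was -0.14 with upper-quartile scaling and -0.39 and -0.47 on the 2 TPM scales. Relative to those medians Fabp2 stood at 6.56, 6.32 and 6.64 and Dgat1 at 1.28, 1.20 and 1.31 on the log2 scale. Apob stood at 1.02, 0.52 and 0.52, Cideb at 0.43, 0.51 and 0.59, Apoa1 at 8.81, 4.25 and 7.502 and Prap1 at 7.71, 4.70 and 8.02. The fitted values of Apoa1 and Prap1, at 0 in vehicle, depend on the prior count or pseudocount. Receptor genes of smell had at least 1 count for 12.7% to 47.8% of them in propyzamide and for 77.1% and 60.8% in vehicle. The groups carry different second index sequences, with 0 shared, so an index batch and the treatment cannot be told apart.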

How the data were processed

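RNA was extracted with Trizol and made into libraries by the SMART-Seq2 method, per the labels' protocols. Each deposited file is an RSEM output listing, for every transcript, an estimated count, TPM, FPKM and its percent share of the gene, per the file headers. Only the deposited estimated count and TPM were analysed. The submitters' processing notes name RSEM, kallisto and GRCm38, with no version. Neither strand nor annotation release was given in the sources used here.

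Estimated counts and TPM of 142647 transcripts were summed to 55471 genes, and counts were rounded. Symbols were found for 99.4% of gene identifiers, and positions come from GENCODE M21 (GRCm38). All 5 libraries entered 1 edgeR 4.0.16 model (R 4.3.3) with the group as its term: filterByExpr, TMM scaling, quasi-likelihood test, Benjamini-Hochberg adjustment over 12024 genes, threshold 0.05. The SE was taken from the F statistic. DESeq2 1.42.0, limma 3.58.1 on log2(TPM + 1) or log2(TPM + 0.1), other scalings and filters, a replicate block, a transcript length offset, removal of rRNA-like and mitochondrial genes, subtraction of background and each library left out were alternatives. The steps were checked on simulated counts.

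The members, the gene lists and the motifs were chosen with earlier results of these data known. Named besides the members are pathway genes past the threshold, up to 2 more of smallest p per group, genes within 100 kb of the apolipoprotein cluster and the 8 genes nearest to Fabp2. Hnf4a, Slc27a4, Cd36, genes that overlap members and some marker genes were named after their values were seen. Counting intervals are exact at 95% and, like the floor of 3 counts, cover counting error only; the reads carry no molecular identifiers. Background used the longest transcript of each gene. No 2 libraries were duplicates (chi-square per degree of freedom 16.0 to 48.1). Nothing in the labels states separate animals, and p-values then reflect only library-to-library spread, which may be technical.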

Additional observations from a re-analysis of the deposited data

How the results depend on the processing

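Fabp2 and Dgat1 kept their direction and moved by less than the spread between libraries in all 16 alternatives. Apoa1 and Prap1 kept their direction in the 14 alternatives that could test them. With 0 counts in both vehicle libraries that direction could not have turned, so nothing is read from it. Without propyzamide replicate 2 or 3 Apoa1 and Prap1 did not pass the filter. Their fitted sizes moved with limma, Apoa1 to 3.86 and 7.03 at pseudocounts 1 and 0.1 and Prap1 to 4.31 at pseudocount 1, against 8.74 and 7.63 with edgeR. Their bounds without each propyzamide library were added after seeing the data. With a library left out, the log2 fold change of Apob ranged from -0.75 (without propyzamide replicate 2) to 1.5005, that of Cideb from -0.12 (without vehicle replicate 1) to 1.23 and that of Ces2a from -0.13 (without propyzamide replicate 2) to 1.09. Ces2a also reversed, to -0.0005 with limma on log2(TPM + 0.1). The members separated upward were 4 to 5 when a library was left out. On the same CPM leaving out a library cannot lower this count, so nothing is read from it.

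The count of 229 changed genes was 36 to 499 when a library was left out, 148 at 10 CPM in 2 libraries, 1327 with no filter on low counts, 565 with DESeq2, 490 with limma on log2(TPM + 1), 362 without rRNA-like and mitochondrial genes and 106 with background subtracted. The 5 other genes of the route that rose were 0 to 8 when a propyzamide library was left out, 3 at 10 CPM, 11 with no filter and 9 with DESeq2. They were 2 and 1 with limma at pseudocounts 1 and 0.1, 2 with background subtracted and 1 with the transcript length offset. Over all tested genes the calls higher were 59 of 8407 at 10 CPM, 450 of 37309 with no filter and 260 of 12024 with DESeq2. With limma they were 66 and 40 of 12024, with background subtracted 51 of 11184 and with the length offset 65 of 12024. Leaving out propyzamide replicates 1, 2 and 3 gave 214 of 11173, 61 of 11219 and 31 of 11713 higher. The 0 that fell became 0 to 1 when a propyzamide library was left out. They became 2 with upper-quartile scaling, with no filter and without rRNA-like and mitochondrial genes, 3 with DESeq2 and 1 with limma at pseudocount 1. Over all tested genes the calls lower in these 5 settings were, in that order, 235 of 12024, 877 of 37309, 258 of 11569, 305 of 12024 and 424 of 12024. The cause of these shifts was not tested.

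With the replicate block 639 genes were called, 324 higher and 315 lower of 12024, and of the other genes of the route 8 were higher and 2 lower. Replicate numbers are shared by 2 pairs only, whose deviations correlated at 0.17 and 0.15, and nothing in the labels pairs these libraries. The deviations of the 2 vehicle libraries mirror each other around their mean, so the 2 correlations are not independent readings. With 2 vehicle libraries, and 1 when either is left out, a lone library is assumed to vary like the others. Fabp1 and Apoc3, at or under 3 counts in both groups, cannot be compared at this depth.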

Other observations

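Of the 92 other genes of the route, 22 did not pass the filter on low counts, and several of them are hallmarks of fat handling in the small intestine. Mogat2, which makes diacylglycerol from absorbed monoglyceride, was at 3.40, 5.13 and 3.04 CPM in propyzamide and 3.31 and 1.70 CPM in vehicle. Npc1l1, the cholesterol uptake protein, was at 0.340, 4.62 and 1.22 CPM in propyzamide and 0.827 and 1.14 CPM in vehicle. Fabp6, the ileal bile acid binding protein, was at 0, 2.05 and 1.22 CPM in propyzamide and 0 and 2.27 CPM in vehicle. Soat2, which esterifies cholesterol, was at 0 counts in all 3 propyzamide libraries and at 0.414 and 2.84 CPM in vehicle (1 and 5 counts). These values were chosen for description after they were seen, and no test was made.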
